A study of Mus musculus with 30 samples.

Results

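Collagens are the triple-helical proteins of the extracellular matrix. The collagen genes described here are the rows of the deposited gene count table whose symbol has the form *Col*, a number, *a* and a number, such as *Col4a1*. They are 44 of 25400 genes in the table, and the choice used the symbol alone. Of these, 41 passed the filter on low counts, which kept 16582 genes in all. The 3 that did not pass were *Col10a1*, *Col19a1* and *Col28a1*, with at most 3, 9 and 12 counts in any library.

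The fibrillar collagens (types I, II, III, V, XI, XXIV and XXVII) assemble into the fibrils of connective tissue, bone and cartilage, while type IV collagen forms the sheet-like network of basement membranes. Type VI collagen makes beaded filaments, the fibril-associated (FACIT) collagens decorate fibrils, the multiplexins (types XV and XVIII) carry chains of heparan or chondroitin sulphate at basement membranes, and the transmembrane collagens sit in the cell surface. In the developing nervous system most fibrillar collagen is made by meninges, vessels and surrounding mesenchyme, and the neuroepithelium rests on a basement membrane of type IV collagen and laminin.

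The study asked how isoforms and domains of MBD2 and MBD3, mutually exclusive members of the NuRD chromatin remodelling complex, act when mouse embryonic stem cells (ESCs) differentiate to neuronal progenitor cells (NPCs). Poly(A) RNA was sequenced from 24 NPC libraries, which represent 8 lines with 3 libraries per line. These were WT, *Mbd3* KO, and *Mbd3* KO that carried a construct for MBD3a (full-length MBD3), MBD3ΔMBD (without the methyl-CpG binding domain), MBD2a (full-length MBD2), MBD2aΔGR (without the N-terminal glycine-arginine stretch), MBD2aR181C (a point mutant of the methyl-CpG binding domain; the deposited columns name it R64C) or MBD2t (without the C-terminal coiled coil). All lines come from HA36CB1 ESCs, and the 6 construct lines share the *Mbd3* deletion, the CAG promoter, 1 recombination site and a biotin tag. The libraries of a line came from individually derived clones, except that the 3 MBD2t libraries come from a single clone. The fit pools the spread of all 8 lines, so p-values rest mostly on the spread between clones and in part on repeats of 1 MBD2t clone, also in comparisons of MBD2t.

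Library totals ranged from 27993858 to 49392806 counts, at which 3 counts, taken as the floor of detection, stand for 0.0607 to 0.115 CPM (counts scaled to the same library total). *Mbd3* was at 149 to 157 CPM in WT and 34.2 to 73.8 CPM in *Mbd3* KO, a difference of -1.38 on the log2 scale (adjusted p = 0.000283). *Mbd2* in the line labelled MBD2a was at 67.0 to 87.2 CPM, against 64.2 to 70.9 CPM in *Mbd3* KO (log2 difference 0.26, adjusted p = 0.508), and at 253 to 700 CPM in the other MBD2 lines. The summed level of 8 neural progenitor markers was 840 to 991 CPM in WT, 800 to 967 CPM in MBD3a and MBD3ΔMBD, 506 to 867 CPM in MBD2aΔGR and MBD2aR181C, and 71.2 to 172 CPM in *Mbd3* KO, MBD2a and MBD2t. Pluripotency markers summed to 22.5 to 122 CPM in WT and 258 to 769 CPM in *Mbd3* KO. In bulk RNA, fewer cells of a type and less RNA per cell cannot be told apart. Library numbers 1 to 3 follow the order of the deposited columns and are only names. Some libraries stood apart from the others of their line. Genes of chromosome 1 were lower in *Mbd3* KO library 1 and MBD2a library 3 than in the other libraries of their line (median log2 deviations -0.375 and -0.388), genes of chromosome 19 were higher in MBD3a library 3 (0.248), and MBD2aΔGR library 3 had most of its collagen counts on 2 genes, as given below. Pluripotency markers summed to 122 CPM in WT library 3, against 22.5 and 35.6 CPM in the other two, and to 253 CPM in MBD2aR181C library 2, against 25.6 and 95 CPM.

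*Col4a1* and *Col4a2* encode the α1 and α2 chains that make up the most widespread type IV collagen, and they were among the 3 highest collagen genes per kilobase of exon in every line. The genes lie head to head on chromosome 8 (mm9, *Col4a1* 11198423 to 11312826 on the minus strand and *Col4a2* 11312805 to 11449287 on the plus strand), and their annotated starts are 21 bases apart. Because the levels of these 2 genes moved together over the libraries, the RefSeq promoter windows are shown, each from 250 bases before to 50 bases after the start, 5′ to 3′ on the strand of its gene (GRCm38.p6, *Col4a1* chr8:11312777-11313076 minus strand, *Col4a2* chr8:11312555-11312854 plus strand). Capitals mark matches on either strand to the CCAAT box (CCAAT, read as ATTGG on the other strand) and the GC box (GGGCGG, read as CCGCCC).
Col4a1: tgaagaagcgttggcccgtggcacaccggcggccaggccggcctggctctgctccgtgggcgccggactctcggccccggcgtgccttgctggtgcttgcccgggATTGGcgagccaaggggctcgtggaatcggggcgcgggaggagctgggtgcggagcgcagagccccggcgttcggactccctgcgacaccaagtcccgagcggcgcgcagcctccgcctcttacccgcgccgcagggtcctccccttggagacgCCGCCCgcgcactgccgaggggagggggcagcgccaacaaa
Col4a2: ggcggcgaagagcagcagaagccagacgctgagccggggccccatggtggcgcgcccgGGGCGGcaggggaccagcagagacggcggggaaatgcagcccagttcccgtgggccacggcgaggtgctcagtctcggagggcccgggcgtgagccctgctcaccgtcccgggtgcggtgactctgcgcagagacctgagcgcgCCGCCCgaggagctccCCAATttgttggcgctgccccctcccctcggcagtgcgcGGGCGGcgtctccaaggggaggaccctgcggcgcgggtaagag
The windows overlap by 78 bases. The GC box of the *Col4a1* window and the last GC box of the *Col4a2* window are the same bases in that overlap. The *Col4a1* window held 1 CCAAT box and 1 GC box and was 74% G and C, and the *Col4a2* window held 1 CCAAT box and 3 GC boxes and was 73.7% G and C. Neither held TATAAA. Among 32851 mouse promoter windows of the same length, 37.4% held a CCAAT box, 35.7% a GC box and 13.6% TATAAA. RefSeq windows matched 35 of the 44 collagen genes. A match describes the letters only.

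Collagen genes took 0.156% ± 0.023 (SD, n = 3) of all counts in WT and 0.297% ± 0.0324 in *Mbd3* KO. The 3 *Mbd3* KO libraries (0.266%, 0.295% and 0.331%) were all above the 3 WT libraries (0.168%, 0.171% and 0.13%). The MBD2t libraries lay between them at 0.23%, 0.239% and 0.247%. In MBD2a the shares were 0.505%, 0.216% and 0.532%, so library 2 was less than the other two but still above WT. In MBD2aΔGR they were 0.221%, 0.207% and 1.59%, and 95.5% of the collagen counts of library 3 were on *Col4a1* and *Col4a2*. Without these 2 genes that library had the share 0.0718%, against 0.11% and 0.128% in libraries 1 and 2 of its line and 0.0812% to 0.124% in WT. The MBD3a, MBD3ΔMBD and MBD2aR181C libraries ran from 0.106% to 0.197% and overlapped WT.

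**Figure D1:**
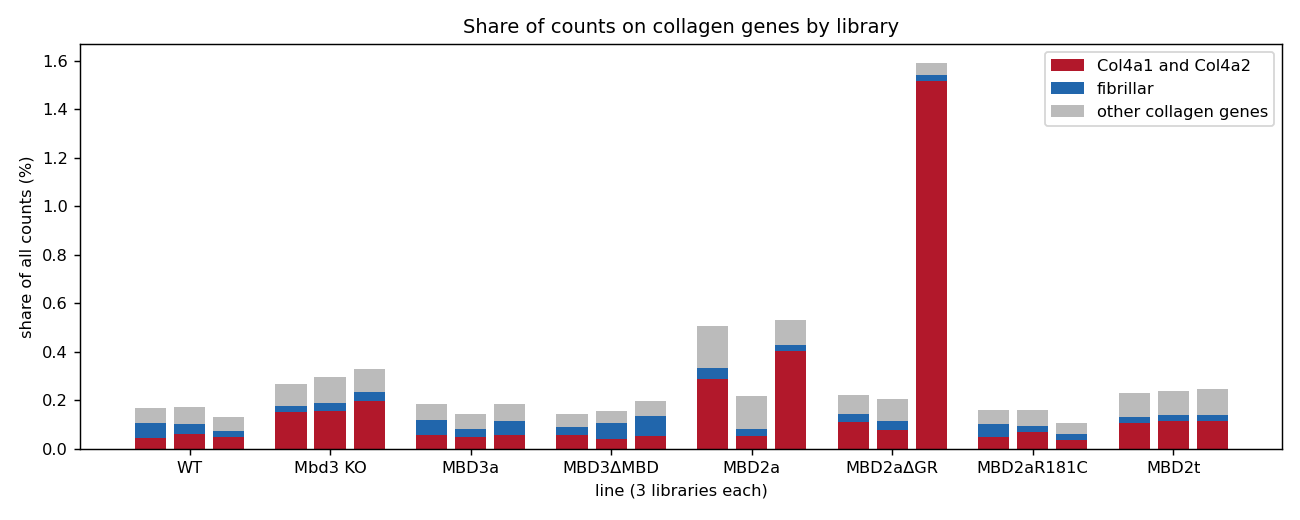
Share of all counts on collagen genes (%) in each of the 24 libraries, stacked as *Col4a1* and *Col4a2*, fibrillar collagens and other collagen genes. MBD2aΔGR library 3 reached 1.59%, and the WT libraries stood at 0.13% to 0.171%.

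Levels of different genes were compared as RPKM (CPM per kilobase of exon, all annotated exons of a gene joined). In WT the order was *Col18a1* (55.0 ± 6.78 RPKM, SD, n = 3), *Col4a1* (46.5 ± 8.04), *Col4a2* (32.4 ± 7.33), *Col2a1* (17.6 ± 1.43), *Col3a1* (16.9 ± 10.5) and *Col4a5* (7.69 ± 1.02). *Col2a1* and *Col3a1* did not differ beyond their spread, and the ranges of mean ± SD of *Col18a1* and *Col4a1* overlapped. In *Mbd3* KO *Col4a1* (131 ± 20.5 RPKM) and *Col4a2* (103 ± 12.5) stood with *Col18a1* (97.9 ± 5.58), and *Col5a1* (12 ± 0.751) came next, while *Col3a1* was no longer among the first 6. In MBD2aΔGR the means of *Col4a1* (549 ± 802 RPKM) and *Col4a2* (359 ± 524) were smaller than their SD.

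A gene was called where edgeR's quasi-likelihood test gave an adjusted p under 0.05 over all genes tested and the log2 fold change was beyond 1 in size. In *Mbd3* KO against WT 17 of 41 collagen genes were called (41.5%, background over all genes 33.8%), 10 higher (background 19.6%) and 7 lower (background 14.2%). In MBD2a against WT 19 were called (46.3%, background 30.6%), 11 higher (background 16.9%) and 8 lower (background 13.7%). In MBD2t against WT 20 were called (48.8%, background 33.4%), 10 higher (background 18.2%) and 10 lower (background 15.1%). Each of these 3 shares lay above a background that was itself high. In MBD2aΔGR against WT 10 were called (24.4%, background 5.16%), 2 higher (background 2.69%) and 8 lower (background 2.47%). This count rested on single libraries, since it fell to 2 of 41 (background 0.722%) without MBD2aΔGR library 3, to 3 (background 1.08%) without WT library 1 and to 6 (background 1.5%) without WT library 2. With MBD2aΔGR and WT fitted alone, *Col26a1* was the 1 collagen gene still called (background 0.0848%), and DESeq2 called 11 (background 6.64%). The paper reported no gene changed in MBD2aΔGR against WT.

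In the other lines no collagen gene passed the test against WT. By edgeR 0 of 41 were called in MBD3a (background 0%), in MBD3ΔMBD (background 0.0181%) and in MBD2aR181C (background 0.0181%). At an unadjusted p under 0.05 there were 1, 2 and 1 genes, and DESeq2 called 0 in each. The largest log2 fold change in these lines was 2.56 for *Col9a1*, a cartilage FACIT chain, in MBD3a. It was at 8.50 CPM in MBD3a library 3, while the other MBD3a libraries had 1.34 and 0.273 CPM and WT 0.248 to 0.852 CPM.

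**Figure D2:**
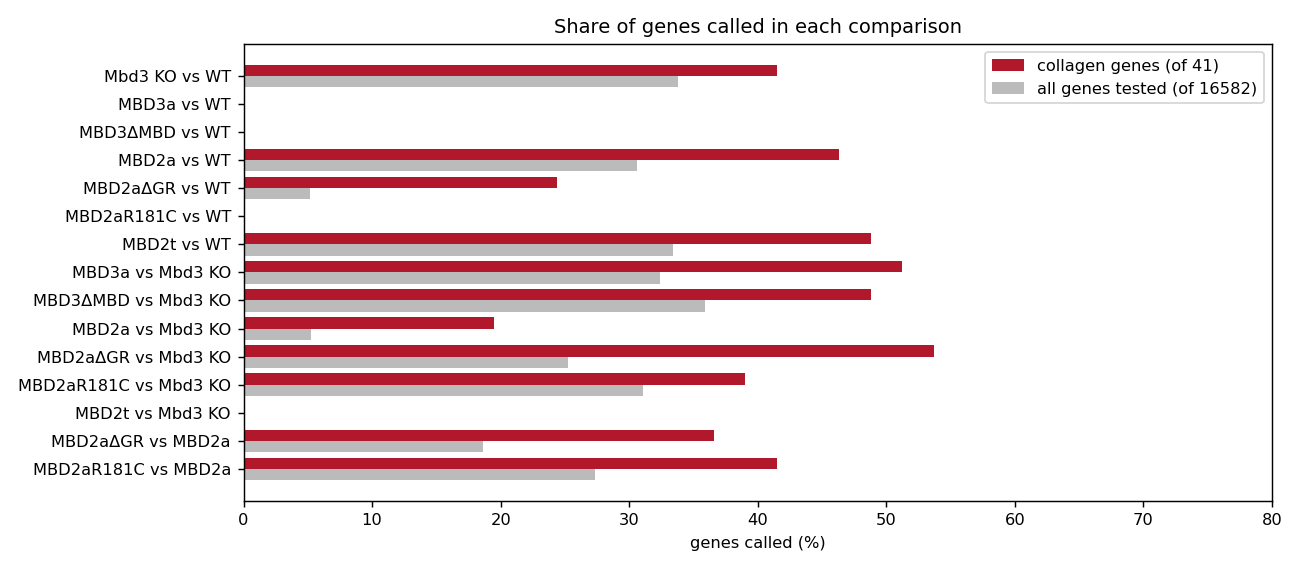
Share of genes called (%) in each of the 15 comparisons, for the 41 collagen genes and for all 16582 genes tested. The collagen share was 41.5% against 33.8% in *Mbd3* KO against WT and 24.4% against 5.16% in MBD2aΔGR against WT.

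Over the 7 lines set against WT, 15 collagen genes were called higher in at least 1 line (36.6%, against 23.3% of all genes tested), 15 were called lower in at least 1 (36.6% against 18.5%), and 13 in none (31.7% against 58.6%). 6 were higher in *Mbd3* KO, MBD2a and MBD2t alike (*Col5a3*, *Col6a5*, *Col7a1*, *Col9a2*, *Col9a3* and *Col17a1*), and 5 were lower in all 3 (*Col3a1*, *Col5a2*, *Col6a3*, *Col14a1* and *Col26a1*). These shares, 14.6% and 12.2%, were close to the 13.6% and 11% of all genes tested. The 3 comparisons share the WT libraries. 2 genes, *Col6a1* and *Col15a1*, were called higher in at least 1 line and lower in at least 1 other (4.88%, against 0.38% of all genes tested). The median log2 fold change of the 41 genes was 0.26 in *Mbd3* KO (all genes -0.0279), -0.0958 in MBD2a (all genes -0.0126), -0.125 in MBD2t (all genes -0.0358) and -0.275 in MBD2aΔGR (all genes -0.00668).

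**Figure D3:**
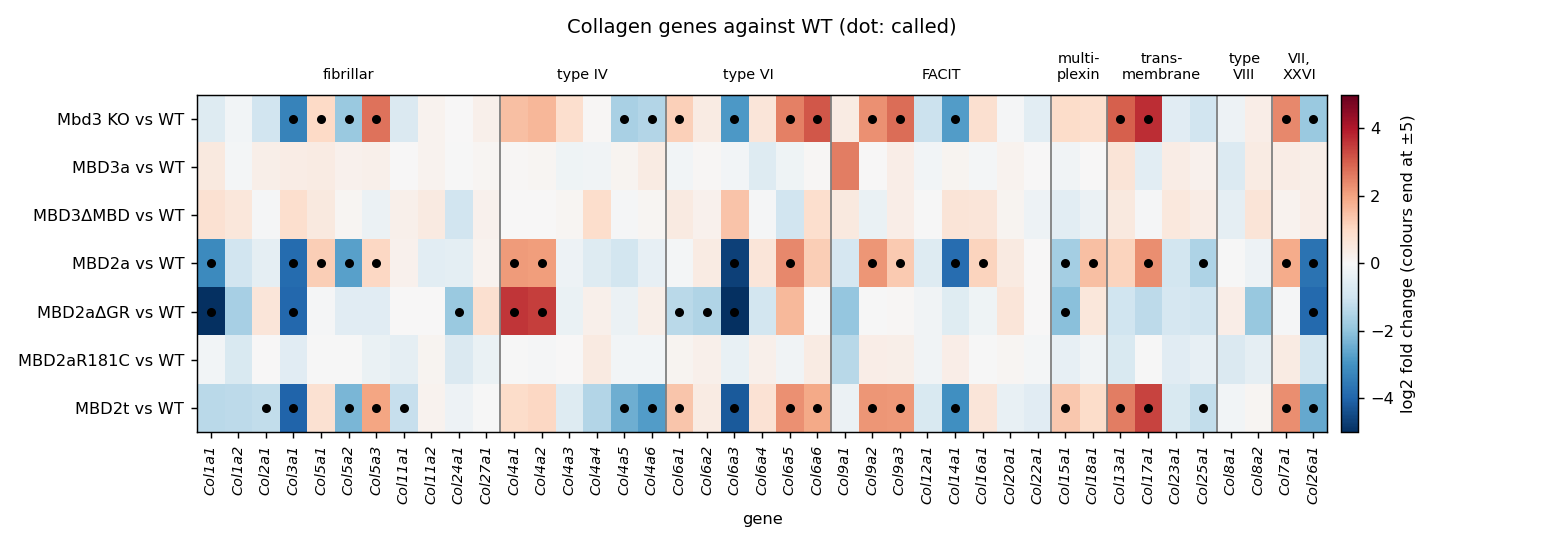
Log2 fold change against WT of the 41 tested collagen genes in the 7 other lines, ordered by class, with a dot where the gene was called. The columns of *Col7a1*, *Col9a2*, *Col9a3*, *Col5a3*, *Col17a1* and *Col6a5* are high in *Mbd3* KO, MBD2a and MBD2t, and the MBD3a, MBD3ΔMBD and MBD2aR181C rows hold no dot.

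Of the 11 fibrillar genes, 2 were higher and 2 lower in *Mbd3* KO, 2 higher and 3 lower in MBD2a, 1 higher and 4 lower in MBD2t, and 3 lower in MBD2aΔGR. Backgrounds over all genes were 19.6% higher and 14.2% lower in *Mbd3* KO, and 16.9% and 13.7% in MBD2a. They were 18.2% and 15.1% in MBD2t and 2.69% and 2.47% in MBD2aΔGR. *Col3a1*, the single chain of type III collagen of soft connective tissue, was at 236, 126 and 62.0 CPM in WT and at 1.89, 23.2 and 16.5 CPM in *Mbd3* KO. Every *Mbd3* KO library was below every WT library, library 1 farthest (log2 fold change -3.34, SE 0.893, adjusted p = 0.00343). The level was 23.3, 3.33 and 3.01 CPM in MBD2a, 8.32, 15.0 and 4.79 CPM in MBD2aΔGR and 9.57, 8.24 and 8.53 CPM in MBD2t, all below the lowest WT library. The log2 fold changes were -3.84 (adjusted p = 0.00177), -3.92 (adjusted p = 0.0196) and -4.01 (adjusted p = 0.00107). In MBD2aΔGR the call was lost without WT library 1 or without MBD2aΔGR library 3, with log2 fold changes from -4.46 to -3.35 over the 6 fits that left out 1 library. *Col3a1* (chr1:45368383-45406551, mm9) lies on chromosome 1, the chromosome on which *Mbd3* KO library 1 and MBD2a library 3 were low, and the part of this in the result was not tested.

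The type V chains, which control fibril diameter, moved apart. *Col5a2*, the neighbour of *Col3a1* with its start 192 kb away on the opposite strand, fell from 8.21, 6.30 and 2.56 CPM in WT to 0.629, 1.88 and 2.06 CPM in *Mbd3* KO (log2 fold change -1.87, SE 0.518, adjusted p = 0.00445). It also fell in MBD2a (-2.71 on the log2 scale) and MBD2t (-2.27), and in MBD2aΔGR its 5.93, 3.90 and 1.61 CPM overlapped WT. *Col5a3* rose from 1.5, 1.24 and 1.36 CPM to 9.69, 7.06 and 10.0 CPM in *Mbd3* KO (log2 fold change 2.70, SE 0.214, adjusted p = 2.93e-08), with no overlap. It was at 2.53, 2.48 and 3.49 CPM in MBD2a (log2 fold change 1.05, adjusted p = 0.000854), where the call was lost without WT library 2 or MBD2a library 3 (lowest value 0.88), and at 5.99, 5.75 and 4.39 CPM in MBD2t (1.97). *Col5a1* was close to the fold threshold in *Mbd3* KO (102 ± 6.38 against 50.6 ± 18.3 CPM, log2 fold change 1.01, adjusted p = 0.00471) and MBD2a (1.22), and in each the call was lost in 2 of the 6 fits that left out 1 library (lowest values 0.76 and 0.92).

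Type I collagen, the main fibril of bone and skin, is a trimer of 2 α1 chains (*Col1a1*) and 1 α2 chain (*Col1a2*). *Col1a1* was at 61.8, 34.2 and 12.4 CPM in WT, at 15.8, 24.9 and 28.1 CPM in *Mbd3* KO, at 3.97, 4.42 and 3.42 CPM in MBD2a, and at 0.952, 1.76 and 0.665 CPM in MBD2aΔGR. The *Mbd3* KO libraries lay within the WT range (log2 fold change -0.65, adjusted p = 0.358), and the MBD2a and MBD2aΔGR libraries were all below it. *Col1a1* fell by 3.20 on the log2 scale in MBD2a (SE 0.678, adjusted p = 0.000651) and by 5.01 in MBD2aΔGR (SE 0.788, adjusted p = 0.00207), and both calls held in each fit that left out 1 library, but the call in MBD2aΔGR was lost with MBD2aΔGR and WT fitted alone. *Col1a2* was at 89.8, 39.8 and 20.7 CPM in WT, 42.8, 32.6 and 2.63 CPM in MBD2a and 15.0, 24.3 and 8.42 CPM in MBD2aΔGR. Both lines overlapped WT, and *Col1a2* was not called in any line against WT (MBD2aΔGR -1.66 on the log2 scale, adjusted p = 0.213). *Col1a1* (chr11:94797538-94814356) overlaps the gene model *Gm17329* on the other strand, and the strand setting of the counting is not given in the sources used here.

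The ratio of *Col1a1* to *Col1a2* counts, each per kilobase of exon, was 1.27, 1.59 and 1.11 in WT and 0.118, 0.134 and 0.146 in MBD2aΔGR. The exon length joins all annotated exons of a gene (6563 bases for *Col1a1* and 12145 for *Col1a2*). Ratios were therefore compared between libraries and not read as proportions of the chains. The MBD2aΔGR ratios were below those of every other library. The next lowest were MBD2a libraries 1 and 2 at 0.172 and 0.251, while MBD2a library 3 stood at 2.41. The log2 difference between MBD2aΔGR and WT was -3.31 (two-sided exact permutation test, p = 0.1, the smallest value that 3 against 3 allows, and 0.3 after adjustment over 21 tests of 3 ratios in 7 lines). The ratio was 3.03, 0.835 and 0.713 in *Mbd3* KO, 1.91 to 2.24 in MBD2aR181C, also outside the WT range (log2 difference 0.67, exact permutation p = 0.1), and 1.25 to 1.34 in MBD2t. *Col3a1* over *Col1a1* was 2.88 to 3.89 in WT, 0.0932 to 0.728 in *Mbd3* KO, 0.463 to 0.521 in MBD2t and 5.64 to 6.84 in MBD2aΔGR. The ranges of these 3 lines did not overlap WT, nor did the 2.72 to 2.87 of MBD3a (log2 difference -0.19, exact permutation p = 0.1), and *Mbd3* KO and MBD2t were on the opposite side of it from MBD2aΔGR (log2 differences -3.36, -2.73 and 0.98, exact permutation p = 0.1 each).

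**Figure D4:**
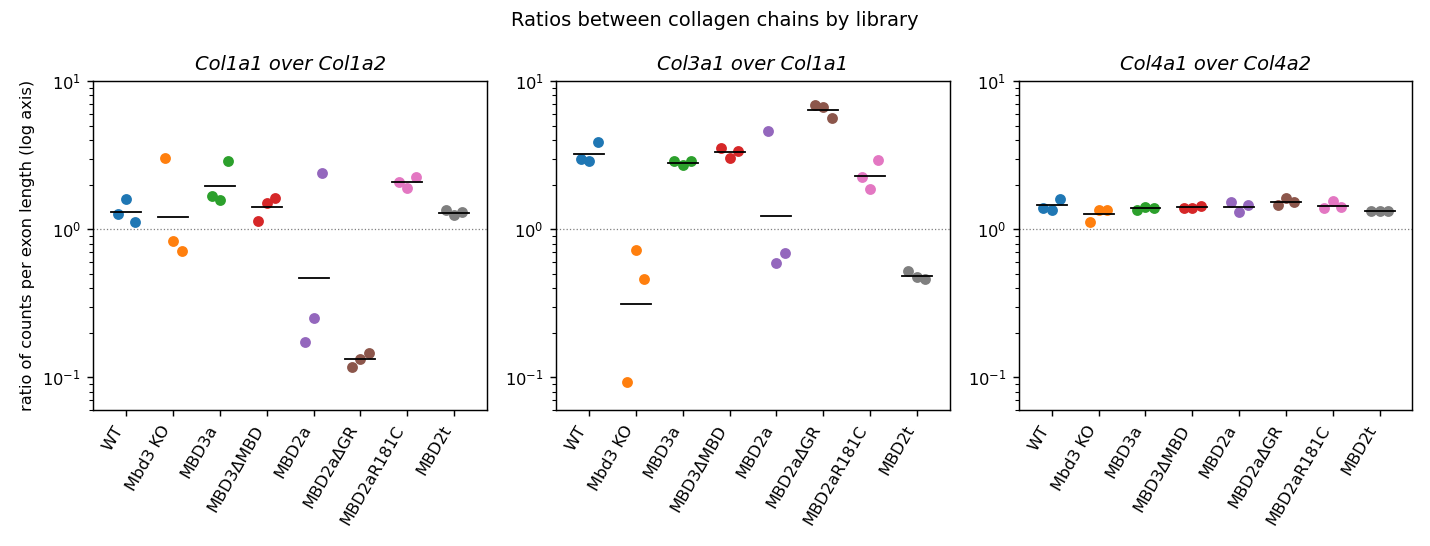
Ratio of counts per exon length between pairs of collagen chains on a log axis, 1 point per library, by line. The *Col1a1* over *Col1a2* points of MBD2aΔGR sit at 0.118 to 0.146 and those of WT at 1.11 to 1.59, while *Col4a1* over *Col4a2* stays between 1.12 and 1.63 in all 24 libraries.

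*Col2a1*, the cartilage collagen that early neuroepithelium also transcribes, was at 115, 105 and 98.3 CPM in WT. The level was 47.9, 61.0 and 55.3 CPM in *Mbd3* KO and 46.2, 41.6 and 49.6 CPM in MBD2t, below every WT library. It fell by 1.21 on the log2 scale in MBD2t (SE 0.207, adjusted p = 6.76e-05), and in *Mbd3* KO the value -0.95 (adjusted p = 0.000609) lay just inside the fold threshold. In MBD2aΔGR it was at 189, 185 and 107 CPM (0.60, adjusted p = 0.0739). *Col11a1*, its partner chain in cartilage fibrils, was also lower in MBD2t (11.3 against 25.1 CPM, -1.14 on the log2 scale, adjusted p = 0.0199), a call that held in 2 of 6 fits that left out 1 library (values -1.42 to -0.88). *Col24a1*, a minor fibrillar chain, was lower in MBD2aΔGR (0.454 against 1.62 CPM, -1.84 on the log2 scale, adjusted p = 0.0103), lost without MBD2aΔGR library 3 and with MBD2aΔGR and WT fitted alone. *Col11a2* and *Col27a1* were not called in any line against WT.

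**Figure D5:**
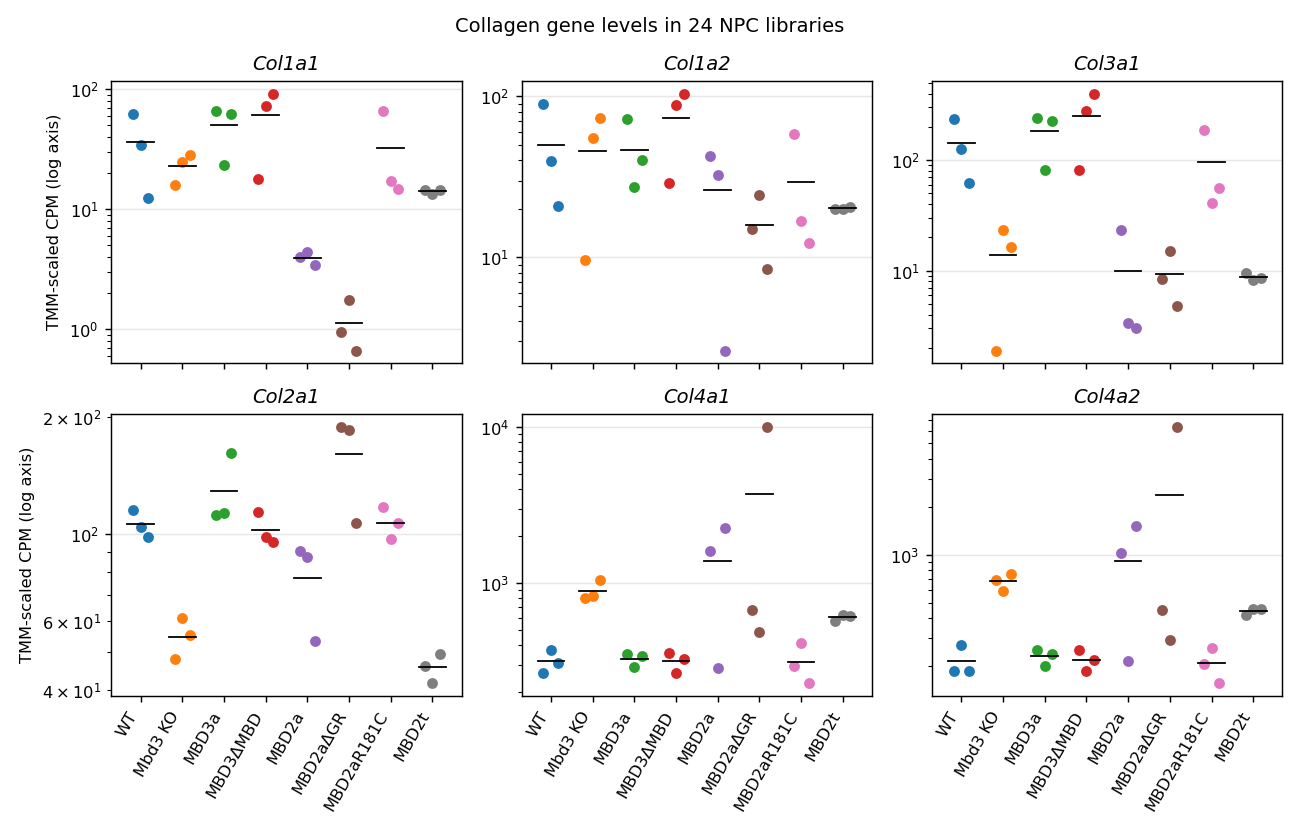
TMM-scaled CPM on a log axis of *Col1a1*, *Col1a2*, *Col3a1*, *Col2a1*, *Col4a1* and *Col4a2* in the 24 libraries, 1 point per library, with a bar at the mean of each line. The *Col1a1* points of MBD2aΔGR lie at 0.665 to 1.76 CPM, and 1 MBD2aΔGR point of *Col4a1* lies at 10060 CPM.

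The pair whose promoters are printed above, *Col4a1* and *Col4a2*, had a ratio per exon length of 1.12 to 1.63 over the 24 libraries, so that its highest value was 1.45 times its lowest, while *Col4a1* itself ran from 228 to 10060 CPM. *Col4a1* was at 267, 376 and 309 CPM in WT, 802, 828 and 1056 CPM in *Mbd3* KO, 1614, 286 and 2266 CPM in MBD2a, 672, 491 and 10060 CPM in MBD2aΔGR, and 577, 624 and 620 CPM in MBD2t. Every *Mbd3* KO, MBD2aΔGR and MBD2t library was above WT, and MBD2a library 2 was within it. *Col4a2* was at 186, 271 and 187 CPM in WT, 693, 596 and 760 CPM in *Mbd3* KO, 1028, 214 and 1513 CPM in MBD2a, 451, 293 and 6378 CPM in MBD2aΔGR and 420, 456 and 453 CPM in MBD2t, with the same libraries high and low.

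In the fit of all lines neither gene was called in *Mbd3* KO (*Col4a1* 1.5 on the log2 scale, SE 0.768, adjusted p = 0.0991, and *Col4a2* 1.67, SE 0.762, adjusted p = 0.0656), although both were called with *Mbd3* KO and WT fitted alone and by DESeq2. Both were called higher in MBD2a (*Col4a1* 2.13, adjusted p = 0.027, and *Col4a2* 2.10, adjusted p = 0.0272), with libraries that overlapped WT. Those calls held in 1 and 2 of 6 fits that left out 1 library (lowest values 1.60 and 1.55, both without MBD2a library 3). Both were called in MBD2aΔGR (*Col4a1* 3.56, SE 0.831, adjusted p = 0.0189, and *Col4a2* 3.47, SE 0.816, adjusted p = 0.0193). Without MBD2aΔGR library 3 the values were 0.87 and 0.79 and the calls were lost, as they were without WT library 1 or 2. In that library 8 markers of extraembryonic endoderm, whose parietal form lays down a thick basement membrane, summed to 1210 CPM, against 172 and 210 CPM in the other MBD2aΔGR libraries and 143 to 203 CPM in WT. In MBD2a the sum was 263, 120 and 357 CPM in libraries 1 to 3, lowest in the library with the least *Col4a1*. It was 109, 152 and 182 CPM in *Mbd3* KO and 131, 129 and 136 CPM in MBD2t. No library of these lines was above the WT range of the sum, though all were above WT in *Col4a1*. The part of extraembryonic endoderm cells in the result was not tested.

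*Col4a5* and *Col4a6*, a head-to-head pair on chromosome X with starts 1309 bases apart, encode the α5 and α6 chains of specialised basement membranes and were called lower in *Mbd3* KO and MBD2t. *Col4a5* was at 59.6, 47.2 and 48.2 CPM in WT, 4.89, 22.4 and 23 CPM in *Mbd3* KO and 8.40, 9.17 and 10.8 CPM in MBD2t. It fell by 1.62 on the log2 scale in *Mbd3* KO (adjusted p = 0.00649) and by 2.45 in MBD2t (adjusted p = 0.000313), with no library overlapping WT. *Col4a6* was at 11.1, 9.77 and 7.11 CPM in WT, 0.915, 4.14 and 4.89 CPM in *Mbd3* KO and 1.29, 1.09 and 1.60 CPM in MBD2t. It fell by 1.47 in *Mbd3* KO (adjusted p = 0.0314), where the call was lost without WT library 1, WT library 2 or *Mbd3* KO library 1 (values down to -1.05), and by 2.80 in MBD2t (adjusted p = 0.00078). Neither was called in MBD2a or MBD2aΔGR. *Col4a3* and *Col4a4*, whose starts are 72 bases apart, stayed under 1 CPM in every library.

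Of the 6 type VI genes, 3 were higher and 1 lower in *Mbd3* KO and in MBD2t, 1 higher and 1 lower in MBD2a, and 3 lower in MBD2aΔGR. The backgrounds are those given for the fibrillar genes. *Col6a1* and *Col6a2* encode the short chains of the filament and *Col6a3* its long chain. *Col6a1* was at 10.7, 7.95 and 5.33 CPM in WT, 22.2, 16.8 and 15.7 CPM in *Mbd3* KO, 17.9, 19.8 and 25.5 CPM in MBD2t and 2.58, 3.81 and 2.91 CPM in MBD2aΔGR. *Mbd3* KO (log2 fold change 1.19, adjusted p = 0.00816) and MBD2t (1.40, adjusted p = 0.00257) lay wholly above WT and MBD2aΔGR (-1.36, adjusted p = 0.042) wholly below. The call in *Mbd3* KO was lost without WT library 3 (0.96), and that in MBD2aΔGR held in 1 of 6 fits that left out 1 library (values -1.59 to -1.13). *Col6a2* was lower in MBD2aΔGR (2.23 against 6.24 CPM, -1.49 on the log2 scale, adjusted p = 0.0121), lost without WT library 1 or MBD2aΔGR library 3.

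*Col6a3* was spread over 12.4, 6.16 and 0.755 CPM in WT, 0.429, 1.37 and 0.688 CPM in *Mbd3* KO, 0.345, 0.206 and 0.204 CPM in MBD2a and 0.312, 0.371 and 0.364 CPM in MBD2t. WT library 3 overlapped *Mbd3* KO, and the *Mbd3* KO call (-2.89, SE 0.968, adjusted p = 0.0143) was lost without WT library 1 (-1.99) or *Mbd3* KO library 1. It fell by 4.65 on the log2 scale in MBD2a (adjusted p = 0.00299) and by 4.18 in MBD2t (adjusted p = 0.00266), each below all WT libraries. In MBD2aΔGR it had 4, 1 and 3 counts against 460, 224 and 31 counts in WT. It was called lower there (adjusted p = 0.0193, lost without WT library 1, MBD2aΔGR library 2 or MBD2aΔGR library 3), but at counts near the floor the size of the fold was not read. Like *Col3a1* and *Col5a2* it lies on chromosome 1.

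The α5 and α6 chains of type VI replace α3 in some tissues. *Col6a5* was at 0.0805, 0.0550 and 0.316 CPM in WT and rose to 1.57, 0.775 and 0.450 CPM in *Mbd3* KO (2.52 on the log2 scale, adjusted p = 0.000806). It was at 0.748, 0.795 and 0.994 CPM in MBD2a (2.42) and 0.790, 0.716 and 0.829 CPM in MBD2t (2.30). WT libraries 1 and 2 had 3 and 2 counts, at or under the floor, so the size of these folds is uncertain. *Col6a6* was at 0.349, 0.358 and 0.170 CPM in WT and at 0.343, 2.94 and 4.10 CPM in *Mbd3* KO. *Mbd3* KO library 1 was within WT while the other two were well above it (3.10 on the log2 scale, SE 0.678, adjusted p = 0.000699). In MBD2t *Col6a6* was at 1.23, 1.33 and 0.768 CPM (1.91, adjusted p = 0.035), a call that held in 1 of 6 fits that left out 1 library.

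Among the 8 FACIT genes tested, with the backgrounds given for the fibrillar genes, 2 rose and 1 fell in *Mbd3* KO and in MBD2t, 3 rose and 1 fell in MBD2a, and none was called in MBD2aΔGR. *Col9a2* and *Col9a3*, chains of the type IX collagen that coats cartilage fibrils, rose together in the first 3 lines. *Col9a2* was at 4.13, 4.92 and 8.11 CPM in WT, 43.2, 25.8 and 15.3 CPM in *Mbd3* KO (2.29 on the log2 scale, SE 0.452, adjusted p = 0.000268), 18.7, 31.8 and 29.9 CPM in MBD2a (2.22) and 27.2, 27.7 and 23.6 CPM in MBD2t (2.19). *Col9a3* was at 2.12, 0.880 and 1.56 CPM in WT, 14.2, 8.26 and 9.10 CPM in *Mbd3* KO (2.78, SE 0.245, adjusted p = 8.24e-08), 3.48, 3.51 and 4.26 CPM in MBD2a (1.30) and 6.24, 6.97 and 7.48 CPM in MBD2t (2.18). For both genes every library of these lines was above every WT library, and MBD2aΔGR (2.73 to 8.67 and 1.38 to 1.83 CPM) stayed near WT. *Col9a3* overlaps *Tcfl5* on the other strand. The third chain, *Col9a1*, was not called in any line against WT. *Col16a1* rose in MBD2a and was called in no other line against WT (MBD2a 5.99 against 2.75 CPM, 1.12 on the log2 scale, adjusted p = 0.0172), and the call was lost without WT library 2.

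*Col14a1*, a FACIT of mature fibrils, was at 5.74, 10.1 and 1.78 CPM in WT and 0.629, 0.841 and 1.06 CPM in *Mbd3* KO. It fell in *Mbd3* KO (-2.78 on the log2 scale, SE 0.663, adjusted p = 0.00144), in MBD2a at 0.633, 0.324 and 0.306 CPM (-3.79) and in MBD2t at 0.957, 0.504 and 0.586 CPM (-3.07). All 9 of these libraries were below the lowest WT library, while MBD2aΔGR (6.91, 3.87 and 0.831 CPM) straddled it. *Col12a1*, *Col20a1* and *Col22a1* were not called in any line against WT.

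The transmembrane collagens held the largest rise. *Col17a1*, the hemidesmosome collagen of epithelia, was at 0.295, 0.440 and 0.584 CPM in WT and at 7.86, 4.58 and 4.92 CPM in *Mbd3* KO (3.69 on the log2 scale, SE 0.513, adjusted p = 8.66e-06). It was at 0.720, 1.92 and 4.00 CPM in MBD2a (2.33, adjusted p = 0.00186), 4.83, 4.72 and 4.23 CPM in MBD2t (3.36, adjusted p = 2.42e-05) and 0.246, 0.149 and 0.139 CPM in MBD2aΔGR. All *Mbd3* KO and MBD2t libraries were well above any WT library, and the MBD2a libraries were spread between WT and *Mbd3* KO. *Col13a1*, found at adhesion sites and the neuromuscular junction, was at 3.44, 3.19 and 2.26 CPM in WT, 39.4, 15.9 and 15.8 CPM in *Mbd3* KO (3.00, SE 0.46, adjusted p = 2.25e-05) and 16.2, 17.6 and 18.9 CPM in MBD2t (2.57). *Col25a1*, made by neurons, fell in MBD2a (0.852 against 2.52 CPM, -1.54 on the log2 scale, adjusted p = 0.0082) and in MBD2t (1.05 CPM, -1.24, adjusted p = 0.0183). The MBD2t call was lost without WT library 1, WT library 2 or MBD2t library 2. *Col23a1* was not called in any line against WT.

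*Col18a1*, whose C-terminal part is endostatin, was at 339, 434 and 386 CPM in WT, 651, 729 and 683 CPM in *Mbd3* KO, 710, 724 and 783 CPM in MBD2t and 1357, 1092 and 799 CPM in MBD2a. These lines did not overlap WT, and the fold passed the threshold in MBD2a (1.49 on the log2 scale, SE 0.192, adjusted p = 7.39e-06) but not in *Mbd3* KO (0.83, adjusted p = 0.000979) or MBD2t (0.94, adjusted p = 0.000351). The MBD2aΔGR libraries, at 542.3, 713.5 and 437.2 CPM, were also above WT, library 3 only just, and *Col18a1* was not called there. *Col15a1*, the other multiplexin, was at 1.99, 2.86 and 2.17 CPM in WT, 0.202, 0.560 and 1.33 CPM in MBD2a, 0.369, 0.715 and 0.554 CPM in MBD2aΔGR and 4.93, 5.75 and 7.20 CPM in MBD2t. It fell in MBD2a (-1.70 on the log2 scale, adjusted p = 0.0102, lost without MBD2a library 1) and MBD2aΔGR (-2.08, adjusted p = 0.0297, lost without WT library 1, WT library 2 or MBD2aΔGR library 3), and rose in MBD2t (1.35, adjusted p = 0.00755).

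*Col7a1*, the anchoring fibril collagen of skin, was at 5.64, 3.49 and 5.06 CPM in WT, 28.8, 21.8 and 25.3 CPM in *Mbd3* KO (2.42 on the log2 scale, SE 0.248, adjusted p = 3.88e-07), 13.3, 15.4 and 22.1 CPM in MBD2a (1.84) and 26.0, 25.1 and 21.1 CPM in MBD2t (2.34). MBD2aΔGR, at 4.09, 4.97 and 4.60 CPM, lay within WT. *Col26a1* was at 43.7, 32.7 and 28.1 CPM in WT, 3.80, 13 and 12.1 CPM in *Mbd3* KO, 3.02, 2.71 and 2.35 CPM in MBD2a, 3.66, 1.97 and 1.47 CPM in MBD2aΔGR and 6.18, 5.51 and 6.15 CPM in MBD2t. It was below WT in every library of these lines, with log2 fold changes of -1.84, -3.69, -3.89 and -2.55 in that order (adjusted p = 0.0023, 1.81e-05, 0.000646 and 0.000182). *Col26a1*, *Col3a1* and *Col6a3* were the 3 collagen genes called lower in all 4 lines, and the *Col26a1* call in MBD2aΔGR held in all 6 fits that left out 1 library. *Col8a1* and *Col8a2*, the short-chain network collagens, were not called in any line against WT.

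Against *Mbd3* KO, whose 3 libraries these comparisons share, 21 of 41 collagen genes were called in MBD3a (51.2%, background 32.4%), 10 higher (background 13.5%) and 11 lower (background 18.9%). In MBD3ΔMBD 20 were called (48.8%, background 35.9%), 10 higher (background 15%) and 10 lower (background 20.9%). In MBD3a the largest differences were those of *Col3a1* (183 against 13.8 CPM, 3.72 on the log2 scale, adjusted p = 0.00183) and *Col17a1* (0.309 against 5.79 CPM, -4.22, adjusted p = 8.8e-06). *Col9a1* was called (2.16) through MBD3a library 3, without which the value was 0.12. In MBD2aR181C 16 were called (39%, background 31.1%), 5 higher (background 13%) and 11 lower (background 18.1%). In MBD2aΔGR 22 were called (53.7%, background 25.2%), 5 higher (background 9.86%) and 17 lower (background 15.3%). In MBD2aΔGR the lower genes included *Col17a1* (-5.0), *Col1a1* (-4.36), *Col13a1* (-3.99), *Col5a3* (-3.27) and *Col15a1* (-3.02), and *Col2a1* was higher (160 against 54.8 CPM, 1.55, adjusted p = 1.04e-05). *Col4a1* was called higher there (2.06) and lay at -0.62 without MBD2aΔGR library 3.

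In MBD2a against *Mbd3* KO 8 collagen genes were called (19.5%, background 5.25%), 0 higher (background 0.856%) and 8 lower (background 4.4%). They were *Col15a1* (0.695 against 4.39 CPM, -2.63 on the log2 scale, adjusted p = 0.00202), *Col1a1* (3.94 against 22.9 CPM, -2.55), *Col13a1* (6.33 against 23.7 CPM, -1.90), *Col26a1* (-1.85), *Col5a3* (2.83 against 8.92 CPM, -1.64, adjusted p = 2.69e-05), *Col9a3* (-1.48, adjusted p = 0.000268), *Col17a1* (-1.36) and *Col6a1* (-1.29). The count was 4 without *Mbd3* KO library 2 (background 4.29%), *Mbd3* KO library 3 (background 3.83%) or MBD2a library 1 (background 3.38%). It was 3 without MBD2a library 2 (background 3.13%). Over the 6 fits that left out 1 library, *Col15a1*, *Col5a3* and *Col9a3* were called in all, *Col13a1* in 3, and *Col1a1*, *Col26a1*, *Col17a1* and *Col6a1* in 1 each. With the 2 lines fitted alone, 2 genes were called (*Col1a1* and *Col5a3*, background 1.52%). In MBD2t against *Mbd3* KO edgeR called 0 of 41 (background 0.0241%), with 5 at an unadjusted p under 0.05 and 0 by DESeq2.

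The mutants were also set against MBD2a, whose libraries both comparisons share. *Mbd2* RNA itself was higher than in the line labelled MBD2a in both (log2 differences 2.57 for MBD2aΔGR, adjusted p = 1.66e-06, and 1.79 for MBD2aR181C, adjusted p = 5.01e-06). At the protein level in ESCs, the paper reported equal MBD2a and MBD2aΔGR by western blot, a measure unlike RNA of NPCs. The part of the *Mbd2* RNA level in the results was not tested. In MBD2aΔGR 15 collagen genes were called (36.6%, background 18.6%), 3 higher (background 8.02%) and 12 lower (background 10.6%). *Col17a1* (0.178 against 2.21 CPM, -3.65 on the log2 scale, adjusted p = 0.000648), *Col9a2* (5.61 against 26.8 CPM, -2.25), *Col13a1* (-2.10), *Col7a1* (4.55 against 16.9 CPM, -1.90, adjusted p = 3.45e-05) and *Col6a2* (-1.90) were lower, and *Col14a1* (3.87 against 0.421 CPM, 3.19), *Col5a2* (2.13) and *Col2a1* (1.05) were higher. In MBD2aR181C 17 were called (41.5%, background 27.3%), 6 higher (background 12.2%) and 11 lower (background 15.1%). The higher genes were *Col6a3* (4.28), *Col14a1* (7.24 against 0.421 CPM, 4.11, adjusted p = 0.000214), *Col3a1* (95.2 against 9.87 CPM, 3.28), *Col1a1* (32.7 against 3.94 CPM, 3.06, adjusted p = 0.00109), *Col26a1* (2.79) and *Col5a2* (2.69). The *Col3a1* and *Col6a3* calls were lost without MBD2aR181C library 1 (2.26 and 2.23). *Col1a1*, *Col3a1*, *Col6a3* and *Col26a1* were not called in MBD2aΔGR against MBD2a in the fit of all lines, although *Col1a1* was with the 2 lines fitted alone and by DESeq2, and the mutants were not tested against each other. In MBD2aΔGR the means of these 4 genes were 1.12, 9.39, 0.0786 and 2.36 CPM.

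Fibroblasts and other mesenchymal cells are the main makers of type I and type III collagen. Of 11 mesenchymal markers tested, 5 were called lower in *Mbd3* KO, 8 in MBD2a, 7 in MBD2aΔGR and 6 in MBD2t (backgrounds 14.2%, 13.7%, 2.47% and 15.1%). 1 of them, *Tagln*, was called higher in *Mbd3* KO, MBD2a and MBD2t (backgrounds 19.6%, 16.9% and 18.2%). The summed level of the 11 markers was 80.8 to 158 CPM in WT and 29.1 to 70.6 CPM in MBD2aΔGR, while *Mbd3* KO had 111 to 127 CPM and MBD2a 103 to 118 CPM. With the same backgrounds, 2 of 6 endothelial markers were called higher in *Mbd3* KO and 3 in MBD2t. In MBD2a 1 was higher and 4 lower, and in MBD2aΔGR 5 were lower. The endothelial sum was 62.7 to 81.6 CPM in WT and higher, without overlap, in *Mbd3* KO (128 to 227 CPM) and MBD2t (161 to 173 CPM). It was 21.7 to 32.7 CPM in MBD2a and 10.1 to 15.3 CPM in MBD2aΔGR. Beside the same backgrounds, 3 of 6 chondrocyte markers were called higher (*Acan*, *Matn1* and *Comp*) and 2 lower (*Sox9* and *Hapln1*) in *Mbd3* KO, MBD2a and MBD2t. The same 2 were lower in MBD2aΔGR. The chondrocyte sum was 74.7 to 149 CPM in WT and near the lower end of that range in *Mbd3* KO (76.1 to 80.2 CPM) and MBD2t (74.1 to 93.5 CPM). It was below that range in MBD2a (33 to 50.2 CPM) and MBD2aΔGR (24.5 to 74.5 CPM). The part of these cell types in the collagen results was not tested.

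Genes that act on collagen were taken from 5 lists. In *Mbd3* KO against WT, 3 of 19 folding and modification genes were higher and 1 lower, 3 of 17 secretion, processing and crosslinking genes were higher and 3 lower, 2 of 8 collagen receptors were higher and 2 lower, 3 of 9 genes of collagen degradation were higher (*Mmp9*, *Mmp14* and the metalloproteinase inhibitor gene *Timp1*) and 1 lower (*Ctsk*), and 10 of 16 basement membrane partners were higher and 0 lower, beside backgrounds over all genes of 19.6% higher and 14.2% lower. *Mmp9* was not called without *Mbd3* KO library 1 (0.45 on the log2 scale). Of the 10 basement membrane partners, 7 were called in all 6 fits that left out 1 library, *Lamb1* in 3, *Lamc1* in 2 and *Nid2* in 1. The last list had a median log2 fold change of 1.60 against -0.0279 over all genes. The largest rises were those of *Adamts14*, a procollagen N-propeptidase (15.0 against 0.953 CPM, 3.94 on the log2 scale, adjusted p = 1.74e-05), *Nid1*, which links laminin to type IV collagen (418 against 41 CPM, 3.35, adjusted p = 0.00053), and the laminin chain gene *Lama3* (3.18 against 0.312 CPM, 3.35, adjusted p = 3.47e-06). The largest fall was that of *Tll2*, from the list of secretion, processing and crosslinking (-2.89, adjusted p = 0.00111). Next were *Ddr2*, a receptor for fibrillar collagen (2.38 against 10.5 CPM, -2.12, adjusted p = 0.007, lost without WT library 1), and *Colgalt2*, a collagen galactosyltransferase (-2.02, adjusted p = 4.27e-05).

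In MBD2aΔGR against WT the same lists had 6 higher and 0 lower, 2 and 1, 0 and 1, 1 and 0, and 4 and 1 (backgrounds 2.69% and 2.47%). The laminin genes *Lamb1* (843 against 80.3 CPM, 3.39 on the log2 scale, adjusted p = 0.012), *Lama1* (956 against 141 CPM, 2.76) and *Lamc1* (1130 against 176 CPM, 2.68) were called higher, and without MBD2aΔGR library 3 their values were 0.98, 0.60 and 0.74 and the calls were lost. Without that library no gene of the 5 lists was called higher. The falls of *Ddr2* (0.422 against 10.5 CPM, -4.63, adjusted p = 0.00434), *Lama4*, a laminin chain of vessels (1.35 against 11.3 CPM, -3.06, adjusted p = 0.000307), and *Loxl1*, a crosslinking oxidase (1.77 against 10.6 CPM, -2.59, adjusted p = 0.000976), held in all 6 fits that left out 1 library. The genes of the 5 lists were not followed with MBD2aΔGR and WT fitted alone, where 0.0848% of all genes were called.

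Across the means of the 8 lines, the genes whose log2 level followed *Col4a1* most closely among 6658 that varied were *Col4a2* (r = 0.996), *Lamc1* (0.98), *Tent5c* (0.98), *Lifr* (0.98) and *Lgmn* (0.97). For *Col1a1* they were *Scube1* (0.98), *Acta2* (0.98), *Twist2* (0.97), *Vwf* (0.97) and *Gxylt2* (0.97). These are descriptions over 8 points that share libraries, and the *Col4a1* values rest in part on MBD2aΔGR library 3. Without that library the values against *Col4a1* were 0.995 (*Col4a2*), 0.98 (*Lamc1*), 0.97 (*Tent5c*), 0.96 (*Lifr*) and 0.96 (*Lgmn*). The 6658 genes were not ranked again without it. Among the collagen genes, the closest to *Col1a1* were *Col26a1* (0.91) and *Col6a3* (0.91), ahead of its partner chain *Col1a2* (0.86).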

How the data were processed

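Poly(A) RNA of NPCs was sequenced in 24 libraries, and the authors deposited a table of raw counts per gene. Per the study's methods, single-end reads of a directional kit were trimmed with Trim Galore (0.6.6), aligned with STAR to mm9 and counted with QuasR on GENCODE models, and the strand setting of the counting is not given in the sources used here. The deposited counts were tested with edgeR's quasi-likelihood test (edgeR 4.0.16, R 4.3.3) after TMM scaling and filterByExpr (minimum count 10, minimum total 15), in 1 fit of all 8 lines with no covariate. The study's methods used edgeR with the same 2 kinds of threshold, but the numbers of genes called differ. Against WT the fit here called 3248 genes higher and 2361 lower in *Mbd3* KO, and the paper reported fewer. In MBD2aΔGR it called 446 higher and 410 lower, and the paper reported none. A gene was called at a Benjamini-Hochberg adjusted p under 0.05 over all 16582 genes tested and a log2 fold change beyond 1 in size. CPM values are TMM-scaled and errors are SD over 3 libraries or SE of the fit. Chain ratios were compared by two-sided exact permutation tests. Floors of 3 counts cover counting error only. Counts were also simulated from the mean levels of WT and MBD3a libraries (15072 genes), with the same spread set for every gene. The test recovered 196 of 199 changed genes (98.5%) with 5 false calls. Far fewer genes were changed there than were called in *Mbd3* KO, and the spread was set. The error rates in these data therefore cannot be read from it.

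Columns were assigned to lines by their group names and carry no replicate number. Alternatives were another scaling (RLE), no filter, DESeq2 (1.42.0), only the 2 lines compared, each library left out in turn, and, chosen after seeing the data, 3 libraries dropped together. All collagen genes could be named, and values by library were given for type I, *Col2a1*, *Col3a1*, *Col4a1* and *Col4a2* and for the 5 largest called rises and falls of each line against WT. Of the genes acting on collagen, the 3 largest called changes per direction in *Mbd3* KO and in MBD2aΔGR were named, and for *Col1a1* and *Col4a1* the 5 genes with the highest r over line means. The collagen genes, lists and tests were chosen with earlier results of these data known. Promoter sequences are from RefSeq (GRCm38.p6) and gene coordinates from mm9. 16 symbols occur more than once in the table. The ChIP-seq libraries were not analysed here.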

Additional observations from a re-analysis of the deposited data

Results flagged for a closer look

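2 collagen genes were called against WT in opposite directions in different lines (4.88%, against 0.38% of all genes tested). The pairs of lines were chosen for those calls, so the differences between them, by edgeR's test, are a description and no independent support. *Col15a1* was higher in MBD2t than in MBD2a (5.96 against 0.695 CPM, 3.05 on the log2 scale, SE 0.483, adjusted p = 0.000592) and than in MBD2aΔGR (5.96 against 0.546 CPM, 3.44, adjusted p = 3.01e-05). *Col6a1* was higher in *Mbd3* KO than in MBD2aΔGR (18.2 against 3.10 CPM, 2.55, adjusted p = 4.32e-05) and higher in MBD2t than in MBD2aΔGR (21.1 against 3.10 CPM, 2.76, adjusted p = 2.02e-05). In all of these pairs the libraries of the higher line lay above those of the lower line. The *Col6a1* call in MBD2aΔGR against WT held in 1 of 6 fits that left out 1 library, and the *Col15a1* calls in MBD2a and MBD2aΔGR were lost in 1 and 3 of them. *Col15a1* overlaps the gene model *Gm12426* on the other strand.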

How the results depend on the processing

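The 15 counts of called collagen genes stayed within 1.5 times their value under RLE scaling, without the filter and with DESeq2. No called value against WT changed direction in the fits that left out 1 library. Under the other alternatives, direction was followed only against WT and for the genes chosen above for values by library. No called value among them changed direction. Among the other comparisons, *Col4a1* in MBD2aΔGR against *Mbd3* KO changed direction, from 2.06 to -0.62 on the log2 scale without MBD2aΔGR library 3. With only the 2 lines compared, the count was 1 in MBD2aΔGR against WT (0.0848% of all genes tested were called), 2 in MBD2a against *Mbd3* KO (1.52%) and 9 in MBD2aΔGR against MBD2a (11%). With *Mbd3* KO library 1, MBD2a library 3 and MBD2aΔGR library 3 dropped together, it was 4 in MBD2aΔGR against WT (1.19% of all genes) and 2 in MBD2t against *Mbd3* KO (*Col6a6* and *Col4a3*, 0.486%). Leaving out each library in turn gave 2 to 12 in MBD2aΔGR against WT (0.722% to 11.4% of all genes). Against WT it also gave 15 to 18 in *Mbd3* KO (30.5% to 34.8%), 16 to 19 in MBD2a (26% to 32.4%) and 17 to 21 in MBD2t (30.2% to 34.7%). It gave 0 against WT in MBD3a (0%), MBD3ΔMBD (at most 0.0476%) and MBD2aR181C (at most 0.0596%). Against *Mbd3* KO it gave 3 to 7 in MBD2a (3.13% to 7.69%) and 0 to 1 in MBD2t (1 without *Mbd3* KO library 1, 0.232%). MBD3a and MBD3ΔMBD each had 18 to 20 against *Mbd3* KO (29.8% to 32.2% and 34% to 36%). MBD2aΔGR had 18 to 23 (21.6% to 28.5%) and MBD2aR181C 13 to 22 (26.6% to 34.6%) against *Mbd3* KO. Against MBD2a the ranges were 11 to 18 in MBD2aΔGR (13.2% to 22.9%) and 13 to 18 in MBD2aR181C (21% to 31.3%). Causes were not tested. No paired analysis was possible because the deposited columns carry no replicate numbers. Genes under about 1 CPM rest on few counts, and the 3 MBD2t libraries leave out the spread between clones.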
